A study of Coccomyxa subellipsoidea C-169 with 6 samples.

Results

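In the unicellular green alga Coccomyxa subellipsoidea C-169, 27 genes had their lowest transcript level in the CG 1 culture alone, at no more than 50% of their level in any other culture. CG cultures received 2% CO2 and AG cultures 0.04% CO2, the level of air, and both were harvested on day 4. RNA of 3 cultures per group, which the study calls biological replicates, was sequenced for digital gene expression, a method that counts short reads per gene. All cultures had the same strain, medium, light and temperature, so that the supplied CO2 is the only difference that the labels give. The counts summed to between 2674507 in CG 1 and 4969639 in AG 3.

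The 27 genes were chosen by their own counts in these 6 libraries. Levels are given as CPM, the count of a gene divided by the sum of its library and multiplied by 1000000, and the AG values of a gene are given in the order AG 1, AG 2, AG 3. A gene was taken if it had at least 20 CPM in each of AG 1, AG 2, AG 3, CG 2 and CG 3, and if its CPM in CG 1 was at most 0.5 times the lowest of these 5. Of the 9409 genes of the table, 5578 had 20 CPM in those 5 libraries, and the 27 are 0.484% of them. Every level of CG 1 given here was thus used for the choice and is a description, without a test. The only difference tested is that of CG 2 and CG 3 against AG, since the choice puts the same minimum on these 5 libraries and does not fix which group is higher. The lowest of these 5 values was also used for the choice, so the test is not fully independent of it.

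The study describes 3 of the 27 genes, and the other 24 are known here only by their number in the deposited table. Gene 54810 is described as 3-oxoacyl-ACP synthase II, an enzyme of plastid fatty acid synthesis which in plants extends palmitoyl-ACP to stearoyl-ACP. Gene 15266 is described as a solanesyl diphosphate synthase, an enzyme that makes the long prenyl chain carried by plastoquinone, the electron carrier of the thylakoid membrane. Gene 47549 is described as a member of the pheophorbide a oxygenase family with a Rieske iron-sulfur domain, and in plants the enzyme that names the family opens the ring of the chlorophyll breakdown product pheophorbide a. In green algae fatty acids, plastoquinone and chlorophyll are all made in the chloroplast, and CO2 supply is known to change both lipid content and the photosynthetic apparatus.

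The only sequences at hand for any of the genes are the primers that the study designed for gene 54810, which mark the stretch of this transcript that was also measured by quantitative RT-PCR. They are written 5′ to 3′.
54810 forward primer: tgcctcggtctttggtaatg
54810 reverse primer: cccctcgttgtcaaagttctc

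CG 1 stood apart from the other libraries in how many genes it held lowest alone. With another library in the place of CG 1 and the same thresholds, 10 genes were lowest in AG 2 alone, 1 in CG 3 alone and 0 in AG 1, AG 3 or CG 2. CG 2 had nearly the same depth as CG 1, with 2724210 counts, and whether depth affects the number of such genes was not tested. In the opposite direction, 39 genes with at least 20 CPM in CG 1 were there at least 2 times as high as in any other library. Unlike the choice of the 27, this count set no minimum on the other libraries. With another library in the place of CG 1 it was 1 in AG 1, 2 in AG 2, 5 in AG 3, 0 in CG 2 and 2 in CG 3. Lying below all others in CG 1 was common by itself, as 1114 of the 5578 genes did so, while 1174 lay above all others. The median ratio of CG 1 to the lowest other library was 1.32 over the 5578 genes, and between 0.211 and 0.496 for the 27, with a median of 0.443. The 16 light-harvesting genes that the study lists, which mark a photosynthetic alga, had counts in all 6 libraries and summed to 17466 CPM in CG 1, 10741 CPM in CG 2, 8823 CPM in CG 3, and 31837 to 36152 CPM in AG.

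**Figure D1:**
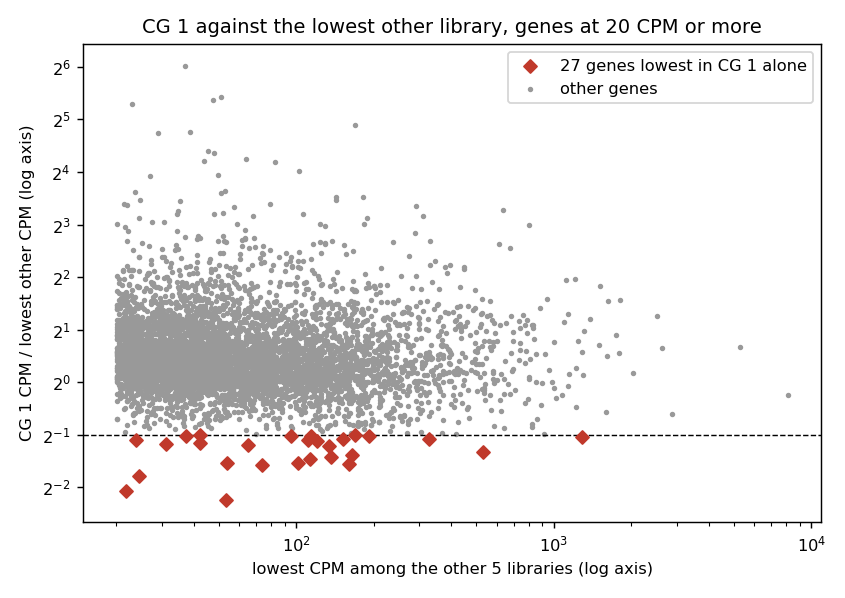
CPM in CG 1 divided by the lowest CPM among the other 5 libraries (vertical, log axis) against that lowest CPM (horizontal, log axis), for the 5578 genes with at least 20 CPM in those 5 libraries. Diamonds are the 27 genes, which lie under the dashed line at 0.5 by the way they were chosen, and they are spread over low and high levels.

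The genes near the threshold differed little from those just past it. The 3 just inside were 33617, 15266 and 54896, with ratios of 0.495, 0.496 and 0.496. Those just outside were 31435, at barely over 0.5, and 31947 and 27575, with ratios of 0.506 and 0.507. Gene 27575 is described as an acetyl-CoA carboxylase (ACCase), the enzyme that makes malonyl-CoA for fatty acid synthesis.

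Counts of the 27 genes in CG 1 were between 14 and 1666.5, with a median of 125. For all 27, the upper limit of the exact Poisson 95% interval in CG 1 lay under the lower limit in the lowest other library, and for 11 it lay at or under 0.5 times the level of that library. Both levels had been used for the choice, which favours such a separation, so the intervals are a description and not a test. No molecular identifiers are named in the study's methods, so these intervals hold for counting error alone, and CG 1 is 1 culture, so the spread of its level between cultures is not known. The lowest of the other 5 libraries was an AG library for 13 genes and CG 2 or CG 3 for 14.

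**Figure D2:**
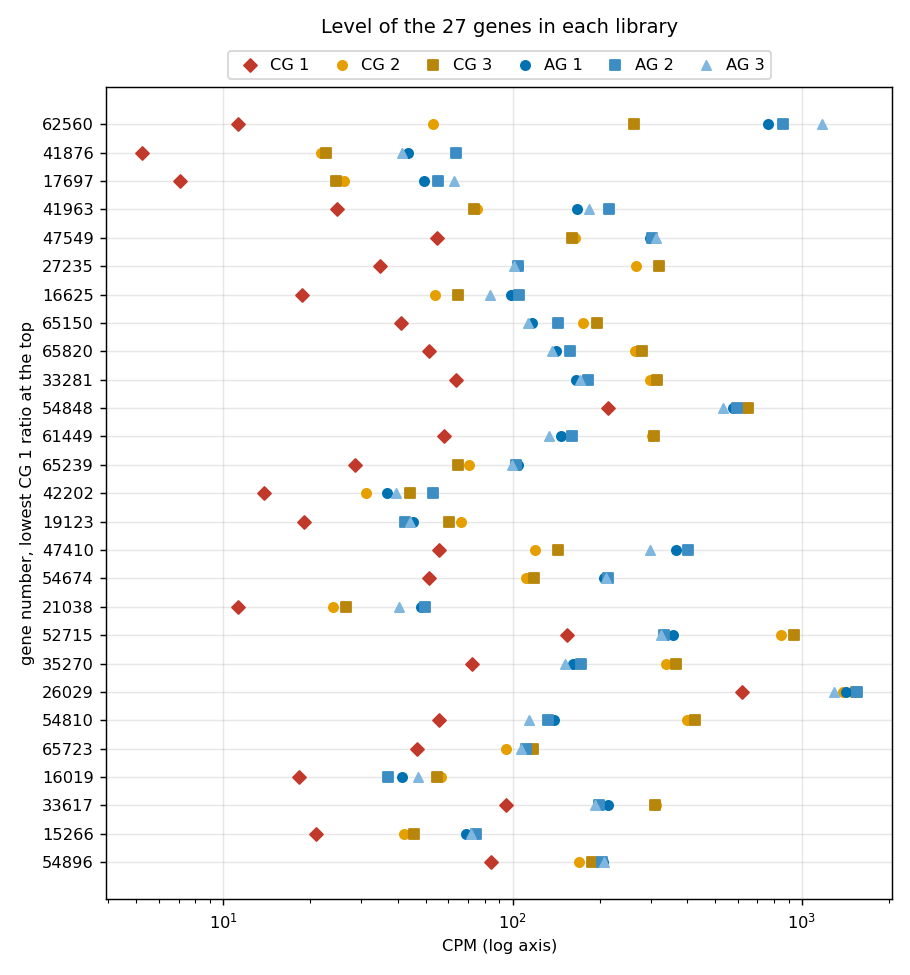
CPM (log axis) of each of the 27 genes in the 6 libraries, with genes ordered by the ratio of CG 1 to the lowest other library. The red diamonds of CG 1 stand left of all other points, CG 2 and CG 3 lie close together except in gene 62560, and they fall right of AG in some genes and left of it in others.

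Apart from CG 1, the 27 genes did not share a response to CO2. CG 2 and CG 3 lay above all 3 AG libraries for 12 genes (44.4%) and below all of them for 12 (44.4%), and overlapped with AG for 3. Among the 5578 genes these shares were 40.3% above and 39.7% below. In edgeR's quasi-likelihood test of CG 2 and CG 3 against AG, with p-values adjusted over 8720 genes, 11 of the 27 were higher in CG 2 and CG 3 (40.7%) and 11 were lower (40.7%), at an adjusted p under 0.05. The background was 34.0% higher and 34.2% lower among all genes tested, and 30.3% higher and 39.1% lower among the 5578, so that the shares of the 27 lie near it. The median log2 fold change of the 27 was -0.13, beside -0.01 over all genes tested.

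Transcripts of 3-oxoacyl-ACP synthase II were the most raised of the 27 in CG 2 and CG 3. Gene 54810 was at 55.7 CPM in CG 1, 400.1 CPM in CG 2, 427 CPM in CG 3, and at 139, 132 and 113 CPM in the AG libraries. The CG libraries thus fell on either side of AG, with CG 2 and CG 3 well above all of AG and CG 1 below it. CG 2 and CG 3 exceeded AG with a log2 fold change of 1.60 (SE 0.09, edgeR adjusted p = 4.53e-09), and their mean was 7.42 times the level of CG 1.

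Other genes of fatty acid synthesis for which the study designed primers rose in CG 2 and CG 3 as well (log2 fold changes of 0.65 to 2.94, edgeR adjusted p of at most 1.83e-05), but only the ACCase 27575 joined 54810 in lying below AG in CG 1. This ACCase was at 211 CPM in CG 1, 693 CPM in CG 2, 746 CPM in CG 3, and at 456, 416 and 420.0 CPM in the AG libraries. The other ACCase, 65159, was at 144 CPM in CG 1, 474 CPM in CG 2, 485 CPM in CG 3 and at 99.6 to 114 CPM in AG, so that CG 1 lay above AG there. The acyl-ACP thioesterase 4465, which releases fatty acids from the carrier protein, was at 46.0 CPM in CG 1, 149 CPM in CG 2, 159.6 CPM in CG 3, and 45.5 to 56.2 CPM in AG. Fatty acid synthase 49000 in CG 1, at 477 CPM, was above AG, at 143 to 172 CPM, and below CG 2 and CG 3, at 1114 and 1398 CPM. For the animal-type fatty acid synthase 47508, CG 1 had 568 CPM, CG 2 and CG 3 had 1734 and 1901 CPM, and AG had 429 to 648 CPM. In each of these 6 genes CG 1 was the lowest of the CG libraries, and in 2 of them it was the lowest of all 6. The study chose them with these libraries in hand, so their common direction is not independent evidence.

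**Figure D3:**
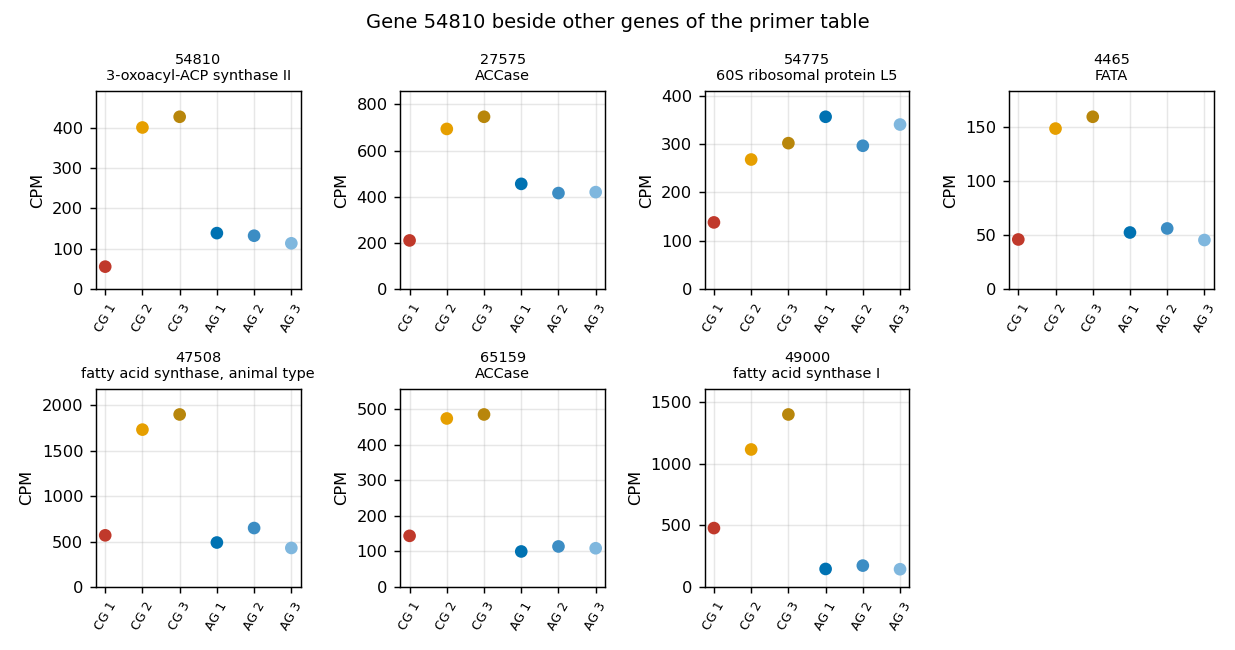
CPM (vertical, from 0) in each library for 54810, the other 5 genes of fatty acid synthesis and ribosomal protein L5 from the study's primer list, ordered by the ratio of CG 1 to the lowest other library. In 54810, 27575 and 54775 the CG 1 point is the lowest of the 6, while in 65159 and 49000 it lies between AG and the other CG libraries.

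A further 10 genes, all without a description, rose in CG 2 and CG 3 while CG 1 lay below AG. Gene 27235 had 34.8 CPM in CG 1, 267 CPM in CG 2, 322 CPM in CG 3, and 104, 104 and 101 CPM in the AG libraries. Its 3 AG values were nearly equal, the mean of CG 2 and CG 3 was 8.47 times that of CG 1, and the log2 fold change of CG 2 and CG 3 against AG was 1.42 (SE 0.09, edgeR adjusted p = 1.65e-08). In gene 52715, CG 1 was at 154 CPM, CG 2 and CG 3 were at 849 and 939 CPM, and AG was at 358, 334 and 327 CPM. Levels of 35270 were 72.2 CPM in CG 1, 339.5 CPM in CG 2, 367 CPM in CG 3, and 161, 172 and 152 CPM in AG. These 2 genes had log2 fold changes of 1.30 and 1.04 (edgeR adjusted p = 1.91e-08 and 1.13e-07), and in both the groups were far apart compared with the spread within CG 2 and CG 3 or within AG.

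Smaller increases in CG 2 and CG 3, by log2 fold changes from 0.30 to 0.96, were found for the other 7. Among them, 61449 was at 58.0 CPM in CG 1, 304 CPM in CG 2, 307 CPM in CG 3, and 147, 161 and 134 CPM in AG. Gene 65820 was at 51.2 CPM in CG 1, against 264 CPM in CG 2, 279 CPM in CG 3 and 142, 158 and 136 CPM in AG. The counts of 33281 gave 63.6 CPM in CG 1, 299 CPM in CG 2, 316 CPM in CG 3, and 165, 183 and 172 CPM in AG. In all 3 genes CG 1 was thus below AG, and CG 2 and CG 3 were above AG, with no overlap. The same order held for 33617, with 95.0 CPM in CG 1, 314 CPM in CG 2, 310.3 CPM in CG 3, and 192 to 214 CPM in AG. It held for 65150 at 41.1 CPM in CG 1, 175 CPM in CG 2, 196 CPM in CG 3, and 113 to 143 CPM in AG. Genes 19123 and 16019 were the low ones of this set, at 19.1 and 18.3 CPM in CG 1, 54.8 to 66.4 CPM in CG 2 and CG 3, and 37.1 to 47.1 CPM in AG. The call of 16019 rested on little, as its adjusted p of 0.0492 in edgeR ranged from 0.0115 to 0.167 over the alternatives without CG 1, and it was lost without AG 1, AG 2, CG 2 or CG 3, at 0.0963, 0.126, 0.167 and 0.139.

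Gene 54848 had the same order but did not pass the test. It was at 214 CPM in CG 1, 637 CPM in CG 2, 650.2 CPM in CG 3, and at 579, 597 and 533 CPM in the AG libraries. The log2 fold change of CG 2 and CG 3 against AG was 0.08 (SE 0.08, edgeR adjusted p = 0.402). Its counts were fractional in all 6 libraries, and whether it shares reads with a similar gene was not tested.

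Over the 12 genes with CG 2 and CG 3 above AG, the mean of CG 2 and CG 3 was 3.01 to 8.47 times the level of CG 1, with a median of 4.87, and the mean of AG was 2.12 to 3.02 times that level, with a median of 2.42. Such an order was less common among all genes than CG 1 lying between the groups. Of the 1689 genes at 20 CPM that were higher in CG 2 and CG 3 by the edgeR test, 146 (8.64%) had CG 1 below all of the other 5 libraries, and 1110 (65.7%) had it between the mean of AG and the mean of CG 2 and CG 3.

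**Figure D4:**
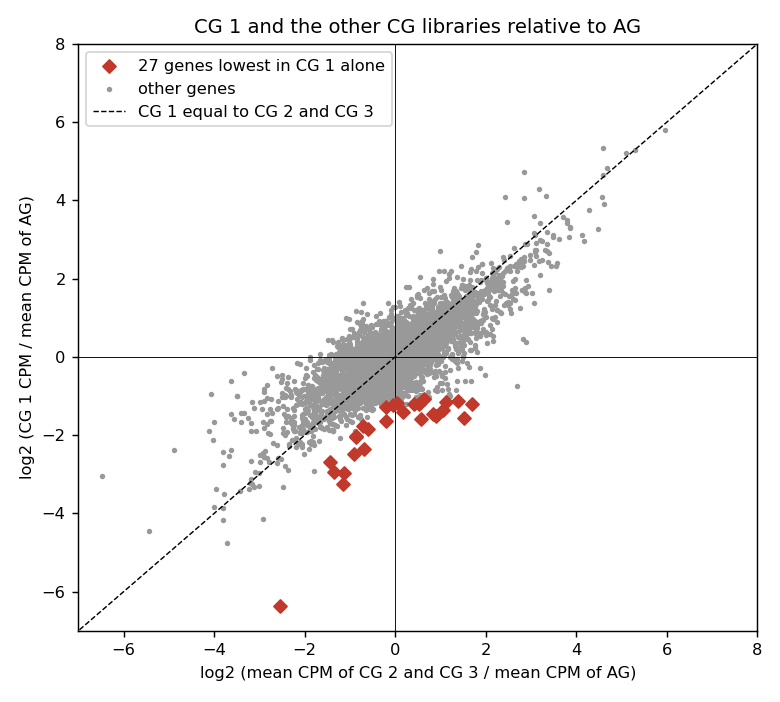
Log2 ratio of CG 1 to the mean of AG (vertical) against the log2 ratio of the mean of CG 2 and CG 3 to the mean of AG (horizontal), in CPM, for the 5578 genes. The 27 genes, drawn as diamonds, run along the lower edge of the cloud, on the left below the dashed line of equal CG levels and on the right below 0, where CG 1 is lower than AG although CG 2 and CG 3 are higher.

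The other 2 described genes, 47549 and 15266, were among the genes that fell in CG 2 and CG 3, and CG 1 was lower still. The pheophorbide a oxygenase family gene 47549 was at 55.0 CPM in CG 1, 164 CPM in CG 2, 161 CPM in CG 3, and at 299, 304 and 312 CPM in the AG libraries. Apart from CG 1, the libraries of a group were close together, and CG 2 and CG 3 did not overlap with AG. The log2 fold change of CG 2 and CG 3 against AG was -1.01 (SE 0.08, edgeR adjusted p = 1.43e-07). The solanesyl diphosphate synthase 15266 was at 20.9 CPM in CG 1, 42.2 CPM in CG 2, 45.7 CPM in CG 3, and at 68.8, 74.8 and 71.6 CPM in the AG libraries. It fell by a log2 fold change of -0.80 (SE 0.11, edgeR adjusted p = 1.83e-05), and its ratio of CG 1 to the lowest other library, 0.496, was next to the threshold.

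The 3 described genes were placed on different functional lists by words in their product names, each on the first list that matched. The place of 47549 follows from these words, not from the chlorophyll breakdown for which its family is named. Each of the lists of pigment and isoprenoid synthesis (4 genes with at least 20 CPM in the other 5 libraries), lipid metabolism (8) and carbon and nitrogen metabolism (37) held 1 of the 27, namely 15266, 54810 and 47549. The lists of photosynthesis (29 genes), respiration (23), membrane transport (19), signalling and transcription (10) and chaperones and redox stress (6) held 0, as did the lists with fewer genes, and at a share of 0.484% lists of these sizes would rarely hold any. Over all 177 described genes at 20 CPM, 3 were among the 27 and 17 (9.60%) had CG 1 below all others, with a median ratio of 2.35. The described genes are those that the study had called changed or had given primers, so they do not represent all genes, and no test was made.

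Of the genes without a description, 62560 had the lowest ratio of all. It was at 11.2 CPM in CG 1, with 30 counts, 53.2 CPM in CG 2, 264 CPM in CG 3, and at 762, 857 and 1173 CPM in the AG libraries. Here CG 2 and CG 3 differed from each other 4.96-fold, the widest gap among the 27, and AG was on average 83.0 times the level of CG 1. CG 2 and CG 3 were below AG by a log2 fold change of -2.61 with a standard error of 0.81, and did not pass the edgeR test (adjusted p = 0.0608). The value rested on the CG libraries used, at -1.92 without CG 2 and -4.23 without CG 3, and it passed in each of these fits (edgeR adjusted p = 0.00594 and 0.000845), in which the spread of the lone CG library was taken from AG. It also passed with the replicate block in edgeR (adjusted p = 0.0347), in DESeq2 (adjusted p = 0.00304) and in limma with either pseudocount (adjusted p = 0.00598 and 0.0114). Over the alternatives without CG 1 the adjusted p was between 0.000845 and 0.156.

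The decreases of 47410 and 41876 concerned neighbouring genes of the RefSeq annotation, the only adjacent pair among the 27. Gene 47410 was at 55.5 CPM in CG 1, 119.9 CPM in CG 2, 143 CPM in CG 3, and at 367, 404 and 298 CPM in AG. Gene 41876 was at 5.23 CPM in CG 1, 21.8 CPM in CG 2, 22.6 CPM in CG 3, and at 43.4, 63.8 and 41.6 CPM in AG. In both genes CG 1 was lowest, CG 2 and CG 3 followed and AG was highest, with log2 fold changes of CG 2 and CG 3 against AG of -1.52 and -1.24 (edgeR adjusted p = 5.85e-07 and 0.000114). Each had fractional counts in 3 libraries, and whether the 2 genes share reads with each other was not tested. The count of 41876 in CG 1 was 14, for which the Poisson interval runs from 2.86 to 8.78 CPM.

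The other 7 genes that fell had the same order of levels. Gene 41963 was at 24.7 CPM in CG 1, 75.3 CPM in CG 2, 73.5 CPM in CG 3, and 167, 216 and 183 CPM in AG. Levels of 17697 were 7.10 CPM in CG 1, 26.1 CPM in CG 2, 24.6 CPM in CG 3, and 49.4, 55.1 and 62.8 CPM in AG. In these 2 genes the mean of AG was 7.65 and 7.85 times the level of CG 1, and CG 2 and CG 3 fell by log2 fold changes of -1.44 and -1.24 (edgeR adjusted p = 8.02e-08 and 3.85e-06). Gene 54674 was at 51.6 CPM in CG 1, against 111 CPM in CG 2, 119 CPM in CG 3 and 207 to 214 CPM in AG. Gene 21038 was at 11.2 CPM in CG 1, 23.9 CPM in CG 2, 26.5 CPM in CG 3, and 40.4 to 49.7 CPM in AG. The falls of both were close in size, with log2 fold changes of -0.96 and -0.95. For 16625 the CG 1 level was 18.7 CPM, CG 2 and CG 3 were at 54.0 and 64.7 CPM, and AG was at 83.6 to 105 CPM. Gene 65239, with fractional counts in all 6 libraries, had 28.5 CPM in CG 1, 70.7 CPM in CG 2, 64.9 CPM in CG 3, and 99.7 to 104 CPM in AG. The smallest of the falls that passed was that of 54896, at 84.1 CPM in CG 1, 169.6 CPM in CG 2, 188 CPM in CG 3, and 203 to 207 CPM in AG, with a log2 fold change of -0.29 (edgeR adjusted p = 0.00816). It was lost without CG 2, at an adjusted p of 0.0952, and ranged from 0.00799 to that value over the alternatives without CG 1.

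Over the 12 genes with CG 2 and CG 3 below AG, the mean of CG 2 and CG 3 was 2.10 to 14.1 times the level of CG 1, with a median of 2.67, and the mean of AG was 2.44 to 83.0 times that level, with a median of 5.33. In these genes CG 1 departed from AG in the same direction as CG 2 and CG 3, and further, as the choice of the genes entails. Among the 2181 genes at 20 CPM that were lower in CG 2 and CG 3 by the edgeR test, CG 1 lay below all of the other 5 libraries in 455 (20.9%) and between the group means in 1205 (55.2%).

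Only 3 of the 27 genes had overlapping levels in AG and in CG 2 and CG 3. Gene 26029 was by far the highest of them in CPM, at 623 CPM in CG 1, 1390.5 CPM in CG 2, 1542 CPM in CG 3, and 1425, 1548 and 1288 CPM in AG. Apart from CG 1 its libraries lay between 1288 and 1548 CPM, with a log2 fold change of CG 2 and CG 3 against AG of -0.05 (SE 0.10, edgeR adjusted p = 0.683), whose sign changed with library totals as the scaling, in limma, and without AG 2 or CG 2. Gene 65723 was at 46.7 CPM in CG 1, 95.1 CPM in CG 2, 118 CPM in CG 3, and 107 to 111 CPM in AG. Gene 42202 was at 13.8 CPM in CG 1, 31.2 CPM in CG 2, 44.1 CPM in CG 3, and 36.8 to 53.1 CPM in AG. Their log2 fold changes of -0.13 and -0.26 did not pass the test (edgeR adjusted p = 0.284 and 0.221).

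**Figure D5:**
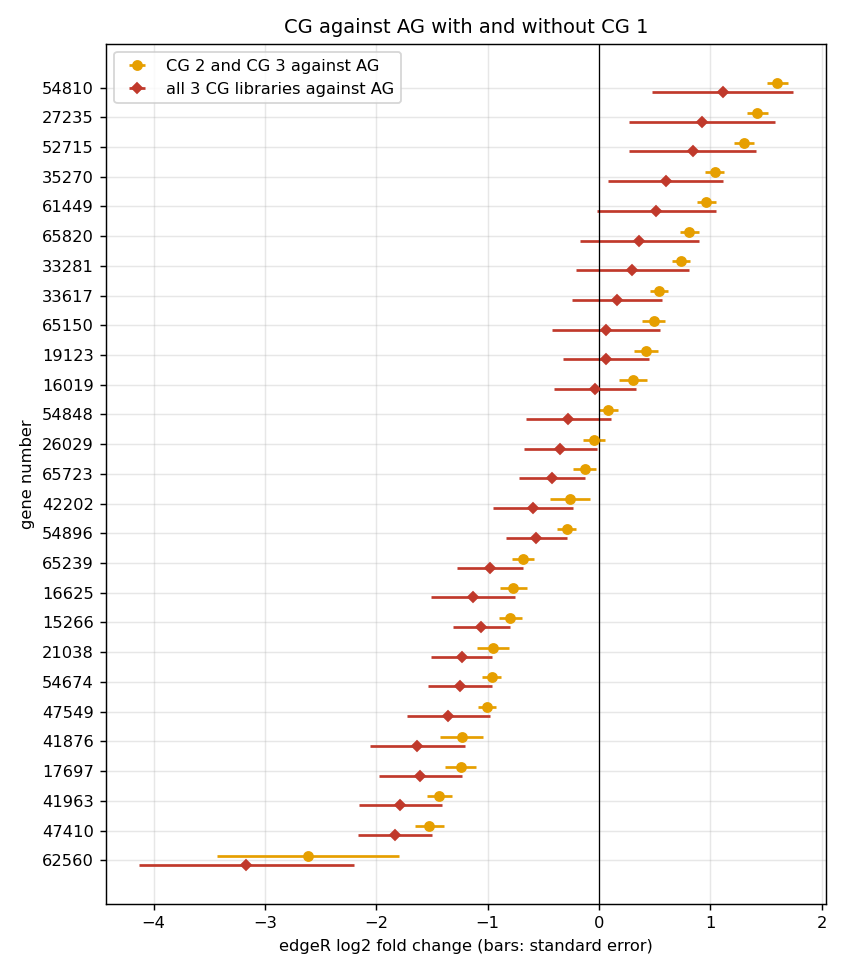
Log2 fold changes of the 27 genes against AG from edgeR, with standard errors as bars, for CG 2 and CG 3 (circles) and for all 3 CG libraries (diamonds). The circles run from -2.61 in 62560 to 1.60 in 54810, and every diamond lies left of its circle, as the choice of the genes by CG 1 entails, and has wider bars.

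Adding CG 1 to the CG group lowered all 27 fold changes, which follows from the choice of the genes. The median log2 fold change was then -0.42 and 17 of the 27 were below 0, and for 54810 the value was 1.11 with a standard error of 0.63, against 0.09 without CG 1. The common biological coefficient of variation over all genes, the spread between libraries of a group beyond counting error, was 0.186 with CG 1 and 0.0810 without it.

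The lengths, levels per length and fractional counts of the 27 genes are given beside those of the 5578 as a description, without a test. Their transcripts, with lengths derived from the deposited counts and RPKM, were 585 to 2915 bp long with a median of 1398 bp, beside 1471 bp over the 5578 genes. Per length, their mean RPKM over the other 5 libraries was 25.5 to 1063, with a median of 122, beside 54.4 over the 5578. Per length, 62560 was the most abundant of them in AG, with a mean of 1591 RPKM, and 52715 in CG 2 and CG 3, with a mean of 1279 RPKM. Counts that were not whole occurred in 6 of the 27 (22.2%), beside 12.0% of the 5578. All 27 were found in the RefSeq annotation, on 17 of its 29 scaffolds and with at most 4 on the same scaffold.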

How the data were processed

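Per the study's methods, the authors mapped short clean reads with Bowtie, whose version is not given in the sources used here, to the C-169 transcripts of Phytozome, allowing a single mismatch and counting sense and antisense reads together, so that overlapping genes on opposite strands cannot be told apart. The deposited expected counts, which are partly fractional (more than 0.01 from a whole number) although the study describes uniquely matched reads, so that the origin of the fractions is not known, and the deposited RPKM values, normalized by the authors to length and mapped reads, were used. Group means, fold changes and FDR values of the authors were not used.

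CPM were computed from the deposited counts. Counts were rounded and CG 2 and CG 3 were compared with AG in R 4.3.3 with edgeR 4.0.16 (TMM, filterByExpr, robust quasi-likelihood, Benjamini-Hochberg over 8720 genes, adjusted p under 0.05). The study does not name its test. P-values of the fits without CG 1 measure the spread between the AG cultures, CG 2 and CG 3, and leave out that of CG 1. The test was repeated with DESeq2 1.42.0 and, after adding 1 or 0.1 to the RPKM and taking log2, with limma 3.58.1, with other scalings, without a filter, with the replicate number as a block and with each library left out. The choice was repeated with other thresholds and scalings. The highest-in-CG 1 count and the counting limits were added after the data were seen. Named were, by rule, the 10 lowest ratios, the 5 highest mean CPM, all described genes and the 5 largest changes each way, and the rest were added for completeness. The members, lists and tests were chosen with earlier results of these data known.

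Functional lists had been planned over product names of all genes, which are not used here, so they cover only genes in the study's primer list or its sheet of enriched terms. The planned search for promoter motifs was not run, since no genome sequence was used. RefSeq matched 9372 of 9409 genes by locus number and served for neighbours only. Figures were made in Python 3.11.15 with matplotlib 3.10.9.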

Additional observations from a re-analysis of the deposited data

How the results depend on the processing

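Of the 27 genes, 22 passed the edgeR test of CG 2 and CG 3 against AG, and 21 to 22 did with each library left out in turn, beside 4970 to 5974 of all genes, against 5946 with all 5. With the replicate numbers as a block, 22 of the 27 and 5602 genes passed, and the block moved no count of calls by over 1.5 times. AG 1 has no partner in that fit and adds nothing to the fold change, which rests on the libraries numbered 2 and 3. Deviations of AG and CG libraries of the same number from their group means correlated at -0.034, 0.038 and -0.051 across genes. Deviations within a group depend on each other, and those of CG include CG 1. These values therefore cannot decide whether libraries of the same number share more than a number. DESeq2 called 22 of the 27, 10 higher and 12 lower, with 5125 of 9378 genes, losing 16019 and gaining 62560. The call of 62560 was also gained in limma, with the block and without CG 2 or CG 3. At the study's criteria, an adjusted p under 0.001 and a log2 fold change beyond 1, 9 of the 27 passed, 4 higher and 5 lower, with 2557 of all genes. With CG 1 added, 11 passed, 0 higher and 11 lower, beside 4512 of 8637 genes, 2355 higher and 2157 lower, and the tally of the 27 was fixed in part by their choice.

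The choice took 10 genes at a ratio of at most 0.4 and 99 at 0.6, and 22 and 38 at a minimum of 40 and 10 CPM. With TMM scaling it took 30, of which 24 were among the 27, and with DESeq2 size factors 32, of which 25 were. With each of the other 5 libraries left out of the minimum it took 27 to 39. Another library in the place of CG 1 gave 0 (AG 1, AG 3, CG 2), 10 (AG 2) or 1 (CG 3). By the upper counting limit of CG 1, 11 stayed under the threshold. Signs turned for 16019 and 54848 with CG 1 added (-0.039 and -0.27), for 65723 without CG 2 (log2 fold changes of -0.31 to 0.0078 with each library left out) and for 26029 with library totals (0.047), in limma with either pseudocount (0.048 and 0.048) and without AG 2 or CG 2 (0.0032 and 0.025, with -0.13 as the lowest when leaving out each library). The 54896 call was lost with library totals and limma, and that of 16019 without a filter, in DESeq2 and with the block. Low counts limit 41876, 17697, 21038, 62560, 42202 and 16019, which had under 50 counts in CG 1.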

Other observations

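The gene of ribosomal protein L5 (54775), which the study used as the internal reference of its quantitative RT-PCR, lay just outside the 27 genes. It was at 138 CPM in CG 1, 268 CPM in CG 2, 302 CPM in CG 3, and at 356, 296 and 340.3 CPM in the AG libraries, a ratio of CG 1 to the lowest other library of 0.515. CG 2 and CG 3 were below AG by a log2 fold change of -0.31 (SE 0.10, edgeR adjusted p = 0.0163), a call lost at an adjusted p of up to 0.146 without AG 1 or CG 2, with the replicate block, with library totals or in limma. This gene was picked out after its values were seen, and which cultures gave the RNA for the quantitative RT-PCR is not given in the sources used here.

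AG 2 was the only other library with several genes lowest alone. Its 10 genes, all without a description, had ratios to the lowest other library between 0.410 and 0.499. Of these, 56329 and 66908 were picked after their values were seen. The ratio was lowest in 56329, which was at 39.7 CPM in AG 2, beside 107 and 111 CPM in AG 1 and AG 3. In 66908, with the lowest level, AG 2 was at 10.2 CPM, beside 22.7 and 32.2 CPM in AG 1 and AG 3. The gene lowest in CG 3 alone, 63560, was at 42.2 CPM there, with 282 CPM in CG 1, 87.7 CPM in CG 2 and 388 to 416 CPM in AG, so that CG 1 was below AG there but above CG 2.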
